A study of Mus musculus with 18 samples.

Results

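The 10 genes described here encode heat-shock chaperones: the cytosolic HSP70s Hspa1a, Hspa1b and Hspa8, the endoplasmic reticulum HSP70 Hspa5, the HSP90s Hsp90aa1 and Hsp90ab1, the HSP70 partners Hsph1 and Dnajb1, and the small heat-shock proteins Hspb1 and Cryab. They were taken by symbol from the count tables of HSC, MPP1 and MPP4, 3 progenitor populations of mouse bone marrow, and each symbol matched 1 row, so that they are 10 of 29717 gene rows. The set was chosen by name with earlier results of these libraries known, including that Hspa1b was called between Dnmt1 mutants and controls in HSC. Values and calls of mutants against controls are therefore given as a description, as is how that difference varied between populations. Of these contrasts, only differences between populations within a genotype are read as tests. All mice were BALB/c. The mutants carry the genotype label dnmt1-/- and the controls the label wt, while the design text describes 1 specific Dnmt1 mutation made in mice after weak missense alleles found in fish, so the label need not mean a null allele. The sources used here do not give the amino acid change, the age of the mice or the number of cells per library. The libraries comprised 3 mutants and 3 controls of HSC, 2 mutants and 2 controls of MPP1, and 4 mutants and 4 controls of MPP4.

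Lineage-negative marrow cells went from the sorter into lysis buffer with no separate RNA purification. The libraries are CEL-Seq2, a method that counts the 3′ ends of transcripts as unique molecules. Libraries came in sequencing batches A (1 mutant and 1 control each of HSC and MPP4), B (1 mutant and 1 control of MPP4) and C (all others). The column names carry 8 ID numbers, 4 of each genotype, that recur across populations. The labels do not say that an ID number is an animal, so a p-value here speaks of the spread among these libraries, which may be partly technical. Total counts ran between 354642 and 1943562 per library, with a median of 745850.5. Levels below are counts relative to the library total (CPM), scaled by TMM factors over the 18 libraries. The Dnmt1 transcript stood at 233.8 to 324.2 CPM in MPP4 mutants and at 243.7 to 408.4 CPM in MPP4 controls, and a 3′ tag cannot read a missense change, so it checks no label. Summed markers of lymphoid-primed cells were 2109 to 3608 CPM in MPP4 and 243.7 to 604 CPM in HSC and MPP1. In 4 libraries the 13 erythroid markers summed to between 15275 CPM in HSC mutant 1 and 239270 CPM in MPP4 mutant 2, with MPP1 control 2 and MPP4 control 4 between them, against 321 to 1128 CPM in the other 14 libraries. In 2 libraries, HSC control 1 at 35554 CPM and MPP4 mutant 3 at 12282 CPM, the 12 B cell markers stood apart. The 11 neutrophil markers summed to 40991 CPM in MPP4 mutant 2, 8219 CPM in MPP1 control 2 and 5461 CPM in MPP4 control 4, against at most 1429 CPM elsewhere.

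Heat-shock chaperones bind unfolded or partly folded proteins and, with the help of partner proteins, release them for folding or for degradation. Under protein stress the transcription factor HSF1 binds repeats of the bases GAA, in alternating orientation, upstream of chaperone genes, and Hspa1a, Hspa1b and Hspb1 are textbook targets that most unstressed cells keep low. Hspa8 and Hsp90ab1 are made at high level without stress, and Hspa5 answers mainly to the unfolded protein response of the endoplasmic reticulum. Blood stem cells hold protein synthesis low and are known to be sensitive to misfolded protein.

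Hspa1a and Hspa1b are near-identical genes that lie beside each other on chromosome 17, and their upstream sequences are shown because the results turn on these genes. The coding parts of their transcripts were 99.5% identical, while the last 300 bases, from which a 3′ library reads, were 52.8% identical. The sources used here do not say how reads that match both copies were assigned. Upstream windows of 250 bases were found for 6 of the 10 genes in RefSeq (GRCm38.p6). In the windows of Hspa1a (chr17:34972157-34972406, minus strand) and Hspa1b (chr17:34959239-34959488, minus strand), which differed at 3 of 250 bases, the capitals mark a pair of heat shock units, GAANNTTC:
Hspa1a: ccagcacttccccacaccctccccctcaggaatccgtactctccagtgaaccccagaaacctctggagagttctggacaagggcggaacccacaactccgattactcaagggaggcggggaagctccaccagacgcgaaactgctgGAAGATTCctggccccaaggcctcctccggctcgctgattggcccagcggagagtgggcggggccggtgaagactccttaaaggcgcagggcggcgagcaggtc
Hspa1b: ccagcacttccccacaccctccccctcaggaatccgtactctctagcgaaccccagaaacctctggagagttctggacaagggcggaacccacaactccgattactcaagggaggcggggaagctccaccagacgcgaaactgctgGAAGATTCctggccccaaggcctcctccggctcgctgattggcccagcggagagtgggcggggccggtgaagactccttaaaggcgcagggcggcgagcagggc

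The pair of units began 104 bases before the start in both genes, and a CCAAT box on the other strand lay 67 bases before it. GAANNTTC, which reads the same on both strands, was present in 6.69% of 32817 upstream windows of the genome, and among the 6 members with a window in Hspa1a, Hspa1b and Hspb1. The Hspa1a window held 14 CpG dinucleotides and the Hspa1b window 15, against a median of 6 over all windows. Windows of Hsph1 and Hspa5 are shown because they carry other elements. Capitals mark TTCNNGAA in Hsph1 (chr5:149636316-149636565, minus strand), found in 7.16% of windows, and the endoplasmic reticulum stress element, CCAAT and CCACG spaced by 9 bases, in Hspa5 (chr2:34771840-34772089, plus strand), found in 0.113% of windows on either strand and in none of the other 5 members with a window:
Hsph1: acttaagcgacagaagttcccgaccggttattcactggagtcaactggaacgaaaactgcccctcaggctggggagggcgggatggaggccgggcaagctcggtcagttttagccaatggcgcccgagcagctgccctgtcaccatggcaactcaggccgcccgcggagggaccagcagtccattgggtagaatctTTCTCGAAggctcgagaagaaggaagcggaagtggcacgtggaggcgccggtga
Hspa5: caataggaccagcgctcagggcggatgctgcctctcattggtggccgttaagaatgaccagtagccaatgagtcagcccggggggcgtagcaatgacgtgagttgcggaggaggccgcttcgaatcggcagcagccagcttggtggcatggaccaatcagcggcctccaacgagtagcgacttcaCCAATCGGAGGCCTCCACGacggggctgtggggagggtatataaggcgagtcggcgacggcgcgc

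A match is a run of letters and does not show that a factor binds there.

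The stress-inducible HSP70 genes were detected in nearly all mutant libraries and were at or near 0 in most control libraries. In HSC, Hspa1b stood at 44.6, 35.7 and 35.1 CPM in mutants and at 3.33, 0 and 2.73 CPM in controls. In MPP1, Hspa1b stood at 32.6 and 19.0 CPM in mutants and at 0 and 1.87 CPM in controls. The mutant values lay above all control values in both populations, as they did for 4.99% of genes tested in HSC and 16.8% of those tested in MPP1. In MPP4, Hspa1b stood at 7.66, 78.7, 41.5 and 25.7 CPM in mutants and at 5.58, 0.450, 3.95 and 8.17 CPM in controls. There the groups overlapped, since MPP4 mutant 1 of batch A lay between the controls.

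Hspa1a, the other copy, had counts in 8 of 9 mutant libraries and in 3 of 9 control libraries, against 9 and 7 for Hspa1b. In HSC, Hspa1a stood at 26.4, 6.09 and 16.7 CPM in mutants, while 1 control held 1.66 CPM and the other two had no count. In MPP1, Hspa1a stood at 24.4 CPM in mutant 1 and at 0 in mutant 2 and in both controls, where 3 counts would have given 6.35 CPM in that mutant and 2.26 and 5.61 CPM in the controls. In MPP4, Hspa1a stood at 10.2, 85.2, 31.1 and 42.3 CPM in mutants and at 3.10, 0.900, 0 and 0 CPM in controls, with no overlap, which 1.45% of the genes tested in MPP4 showed in the same direction. The counts behind these levels were few: 165 Hspa1a counts in the 9 mutants against 8 in the 9 controls, and 221 Hspa1b counts against 21. Summed over libraries and scaled by depth, the mutant to control ratio of Hspa1a was 31.5 in HSC (95% counting interval 5.38 to 1272) and 26.4 in MPP4 (12.4 to 67.1). In MPP1 all 9 Hspa1a counts of the mutants came from mutant 1, and mutant 2 was at 0 like both controls. Pooled over the mutants and set against a floor of 3 counts over the control group, the ratio was 5.95, with no interval. The ratio of Hspa1b was 25.4 in HSC (8.45 to 125), 41.7 in MPP1 (6.70 to 1723) and 8.78 in MPP4 (5.19 to 15.7). These intervals cover counting error only.

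MPP4 mutant 2, which held the most erythroid marker RNA, also held the highest levels of Hspa1a, Hspa1b and Cryab. Without it, MPP4 mutants ran between 10.2 and 42.3 CPM for Hspa1a and between 7.66 and 41.5 CPM for Hspa1b, in libraries whose erythroid sums of 420 to 541 CPM were near those of most controls. MPP4 control 4, with 45654 CPM of erythroid markers, had no Hspa1a count, where 3 counts would have given 12.3 CPM, and the highest Hspa1b of the 9 controls, 8.17 CPM. The part of erythroid RNA in these values was not tested. In batch A, Hspa1a in MPP4 stood at 10.2 CPM in the mutant and 3.10 CPM in the control.

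Cryab, the small heat-shock protein αB-crystallin best known from lens and muscle, was also sparse, with counts in all 9 mutant libraries and in 6 of 9 control libraries. It stood at 14.6, 18.3 and 10.02 CPM in HSC mutants and at 0, 0.921 and 10.9 CPM in HSC controls, where the third control lay inside the mutant range. In MPP1 it stood at 27.2 and 21.2 CPM in mutants and at 0.752 and 1.87 CPM in controls. In MPP4 it stood at 26.8, 39.3, 7.78 and 21.6 CPM in mutants and at 1.24, 2.70, 0 and 0 CPM in controls, with no overlap in either MPP population, as for 16.8% of the genes tested in MPP1 and 1.45% of those tested in MPP4 in the same direction. The counts were 131 in mutants and 15 in controls. Cryab overlaps Hspb2 on the opposite strand, a gene with 12 counts over all libraries, and the sources used here do not say whether the counting used strand. Hspb1, the other small heat-shock protein, was barely detected, with 2 counts over the mutants and 1 over the controls, and none in MPP4.

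**Figure D1:**
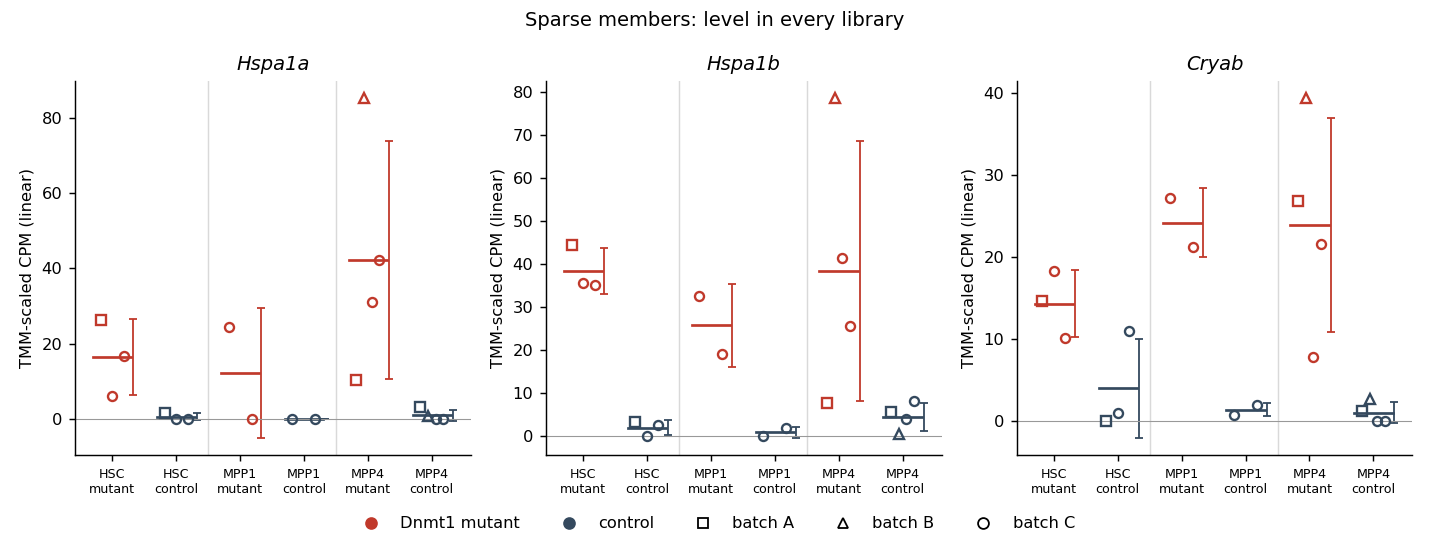
Hspa1a, Hspa1b and Cryab in every library, as TMM-scaled CPM on a linear axis by population and genotype; symbols give the sequencing batch, horizontal bars the group mean and vertical bars the SD. Mutants averaged 38.4 CPM and controls 2.02 CPM for Hspa1b in HSC, and the highest mutant of MPP4, at 85.2 CPM of Hspa1a, is the library of batch B.

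A quasi-likelihood fit per population (edgeR, Benjamini-Hochberg adjustment over all genes tested, calls at an adjusted p under 0.05) tested 7 members in HSC, 7 in MPP1 and 6 in MPP4 after a filter on low counts, which removed Hspa1a and Hspb1 everywhere, Hspa1b outside HSC and Cryab outside MPP1. In HSC, 1 of the 7 was called, Hspa1b, beside 0.241% of all genes tested (0.437% with the replicate number as a block, which kept the call of Hspa1b). In MPP1, 0 of 7 were called beside 0.225% of all genes, and in MPP4 0 of 6 beside 0.0852%. At an unadjusted p under 0.05 edgeR had 2 members in MPP1 (Cryab and Hsph1) and 1 in MPP4 (Hspa8), and DESeq2 called 0 in MPP1 and 1 in MPP4 (Hspa8). The list was drawn up with these results in view and the filter keeps sparse genes only where 1 group is high, so nothing is read from these counts. The fitted log2 difference of Hspa1b in HSC was 4.53 (SE 0.61), and that of Cryab in MPP1 was 4.25 (SE 1.12). The Hspa1b call was lost when 1 spread was shared over all 18 libraries, with an adjusted p of 0.212 in edgeR's quasi-likelihood test. In MPP4 the filter removed Hspa1a, Hspa1b and Cryab. With no filter on low counts, edgeR called them and Hspa8, beside 0.369% of 23876 genes. Hspa8 also passed the filter, where edgeR did not call it (adjusted p 0.154). With Hspa1a and Hspa1b summed into 1 row, a setting chosen after seeing the data, the log2 difference was 4.66 (SE 0.54) in HSC and 3.81 (SE 0.95) in MPP4. The authors' deposited table gave shrunken differences of mutant over control, with 2.002 for Hspa1b in HSC (adjusted p 0.000307). For MPP4 the authors' deposited table gave 2.28 for Hspa1a (adjusted p 0.000112), 1.98 for Cryab (adjusted p 0.00348) and 1.63 for Hspa1b (adjusted p 0.0694).

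Hspa8, the constitutive cytosolic HSP70, was abundant in all groups, with its highest levels in mutants of batch A. In HSC it stood at 1013, 332 and 137 CPM in mutants and at 479, 179.6 and 109 CPM in controls. In MPP1 it stood at 220.0 and 231 CPM in mutants and at 131 and 243 CPM in controls. In MPP4 it stood at 1027, 520.1, 195 and 443 CPM in mutants and at 488, 352, 123 and 139 CPM in controls. The groups overlapped in each population. Within each batch of MPP4 the mutants lay above the controls: 1027 against 488 CPM in batch A, 520.1 against 352 CPM in batch B, and 195 and 443 against 123 and 139 CPM in batch C. How many of all genes show this order was not counted, and batches A and B hold 1 MPP4 library of each genotype, so nothing is read from it. In HSC the batch C libraries overlapped. The fitted log2 difference, with batch as a term, was 0.81 (SE 0.28) in HSC and 1.06 (SE 0.26) in MPP4. In MPP1, which has 1 batch, it was 0.31, and it was -0.12 without MPP1 control 1 and 0.79 without MPP1 control 2.

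The HSP70 partners overlapped between genotypes except for Hsph1 in MPP1. Hsph1, which exchanges the nucleotide of HSP70, stood at 95.5, 67.0 and 26.7 CPM in HSC mutants and at 74.9, 43.3 and 43.6 CPM in HSC controls. In MPP1, Hsph1 stood at 19.0 and 25.4 CPM in mutants and at 37.6 and 69.1 CPM in controls. There the mutants lay below the controls, as they did for 17.1% of the genes tested in MPP1. In MPP4, Hsph1 stood at 48.5, 39.3, 18.2 and 38.1 CPM in mutants and at 58.9, 58.1, 28.5 and 40.8 CPM in controls, which overlap. The log2 differences of mutants minus controls were 0.23 in HSC (-0.14 without HSC mutant 2), -1.17 (SE 0.45) in MPP1 and -0.27 in MPP4.

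Dnajb1, the J protein that delivers clients to HSP70 and a known HSF1 target, overlapped between genotypes in every population. It stood at 140.1, 70.5 and 83.5 CPM in HSC mutants and at 113, 89.4 and 84.5 CPM in HSC controls. In MPP4 it stood at 123, 166, 80.4 and 77.9 CPM in mutants and at 113, 130.1, 57.7 and 73.5 CPM in controls, with 65.2 and 97.3 CPM in MPP1 mutants and 76.0 and 69.1 CPM in MPP1 controls. Its log2 differences ran between -0.02 in HSC and 0.27 in MPP4, and that of MPP1, 0.17, was -0.16 without MPP1 mutant 2.

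The HSP90 genes had positive fitted differences in all 3 populations, none of them called. Hsp90aa1, the more inducible of the pair, stood at 761, 739.8 and 426 CPM in HSC mutants and at 456, 378 and 502 CPM in HSC controls. In MPP1, Hsp90aa1 stood at 709 and 914 CPM in mutants and at 489.9 and 658 CPM in controls, without overlap, as for 16.8% of the genes tested there in the same direction. In MPP4, Hsp90aa1 stood at 642, 358, 654 and 729 CPM in mutants and at 369, 613, 389 and 617 CPM in controls. The lowest mutant there, MPP4 mutant 2, was the library with the highest Hspa1a. The log2 differences of Hsp90aa1 were 0.51 in HSC, 0.51 in MPP1 and 0.25 in MPP4.

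Hsp90ab1, the constitutive HSP90, ran between 1396 and 2803 CPM in mutants and between 1447 and 2255 CPM in controls over the 3 populations, with log2 differences of 0.19 in HSC, 0.33 in MPP1 and 0.24 in MPP4. In MPP1 its mutants, at 2255 and 2803 CPM, lay above its controls, at 1945 and 2078 CPM. The same held for 16.8% of the genes tested there. In HSC and MPP4 the groups overlapped. Hspa5, the HSP70 of the endoplasmic reticulum and the usual reporter of its stress, ran between 327 and 671 CPM in mutants and between 346 and 707 CPM in controls. Its groups overlapped in every population, and its log2 differences were -0.13 in HSC, -0.13 in MPP1 and -0.07 in MPP4. The joint fit of the 18 libraries also compared the mutant effect between populations. This is a description too, since the set was chosen with earlier results known. Neither edgeR nor DESeq2 called a member there, and edgeR had 1 member at an unadjusted p under 0.05 for MPP4 minus HSC, 1 for MPP1 minus HSC and 0 for MPP4 minus MPP1. Of all 10613 genes, edgeR called 3 (0.0283%) for MPP4 minus HSC and 0 for MPP1 minus HSC and for MPP4 minus MPP1. At an unadjusted p under 0.05 these had 412 genes (3.88%), 505 genes (4.76%) and 466 genes (4.39%).

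**Figure D2:**
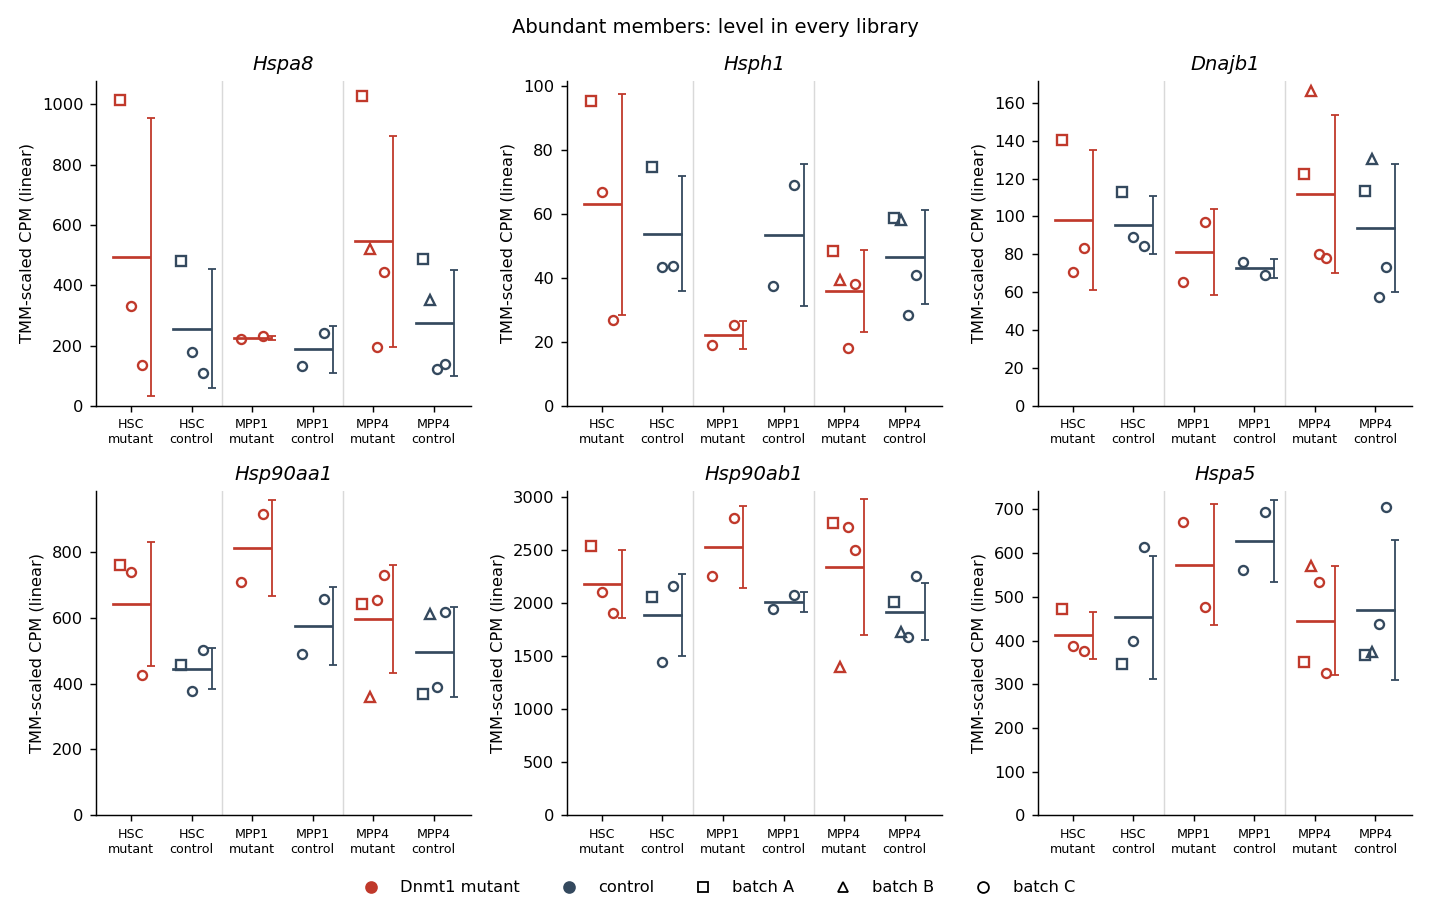
The 6 abundant members in every library, as TMM-scaled CPM on a linear axis that starts at 0, by population and genotype; symbols give the sequencing batch, horizontal bars the mean and vertical bars the SD. Mutant and control libraries overlap in HSC and in MPP4 in every panel. In MPP1, Hsp90aa1 and Hsp90ab1 are higher and Hsph1 lower in mutants without overlap, as for 16.8% and 17.1% of the genes tested there. For Hspa8 the highest libraries, at 1027 and 1013 CPM, are mutants of batch A.

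Between populations, no member was called in controls. The joint fit, blocked on ID number, tested 9 members, all but Hspb1, and called 0 of 9 for MPP4 against HSC in controls beside 9.82% of all 10613 genes. It called 0 of 9 for MPP1 against HSC in controls (0.236% of all genes) and 0 of 9 for MPP4 against MPP1 in controls (3.58%), where 0, 0 and 1 members had an unadjusted p under 0.05 in edgeR and DESeq2 called none. Among the abundant members the MPP4 minus HSC log2 difference in controls ran between -0.39 (SE 0.26, adjusted p 0.474) for Hsph1 and 0.14 (SE 0.19, adjusted p 0.785) for Hspa5, in edgeR's quasi-likelihood test. Hspa1a, Hspa1b and Cryab stood at no more than 3.10, 8.17 and 10.9 CPM in controls and passed the filter through mutant libraries. Little can therefore be read from their lack of a call in controls. For Hspa1a the SE of 3.11 was too wide to read a direction for MPP4 against HSC in controls. MPP1 controls held no Hspa1a count, so neither contrast with them can be read for it.

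Hsph1 was the only member called between populations in mutants. It was lower in MPP4 mutants than in HSC mutants by a log2 difference of -0.83 (SE 0.26, adjusted p 0.0291, edgeR's quasi-likelihood test), 1 call among 9 members beside 12.7% of all genes. This is near the share of all genes, so nothing about the members as a set is read from it. For MPP1 against HSC in mutants its log2 difference was -1.12 (SE 0.39, adjusted p 0.495, edgeR's quasi-likelihood test), which was not called. Hsph1 was lower in MPP4 than in HSC for all 6 ID numbers that had both libraries. This describes the values behind the call and adds no support to it, and how many of all genes show the same was not counted. In mutants the MPP4 and HSC libraries of 1 ID number stood at 48.5 against 95.5 CPM, 38.1 against 67.0 CPM and 18.2 against 26.7 CPM. In controls they stood at 58.9 against 74.9 CPM, 28.5 against 43.3 CPM and 40.8 against 43.6 CPM. The difference between genotypes in this step was not called. The adjusted p ran between 0.0259 and 0.233 over 16 alternatives, and it passed 0.05 in 8 of them: the call was lost with library totals in place of TMM, with DESeq2, with no filter, with a batch term instead of ID numbers, in batch C alone and without any 1 of the 3 mutant ID numbers.

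The other 8 members tested were not called for MPP4 against HSC in mutants. Hspa1b had a log2 difference of -0.81 (SE 0.41, adjusted p 0.232) and Hspa1a one of 0.87 (SE 1.03, adjusted p 0.728) by edgeR's quasi-likelihood test. In mutants, 0 of 9 members were called for MPP1 against HSC (0.0471% of all genes) and 0 of 9 for MPP4 against MPP1 (6.20%). In the same order, 2 and 1 members had an unadjusted p under 0.05 in edgeR, beside 7.40% and 17.8% of all genes. DESeq2 called none. In these bulk libraries fewer cells of a type and less RNA per cell cannot be told apart.

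**Figure D3:**
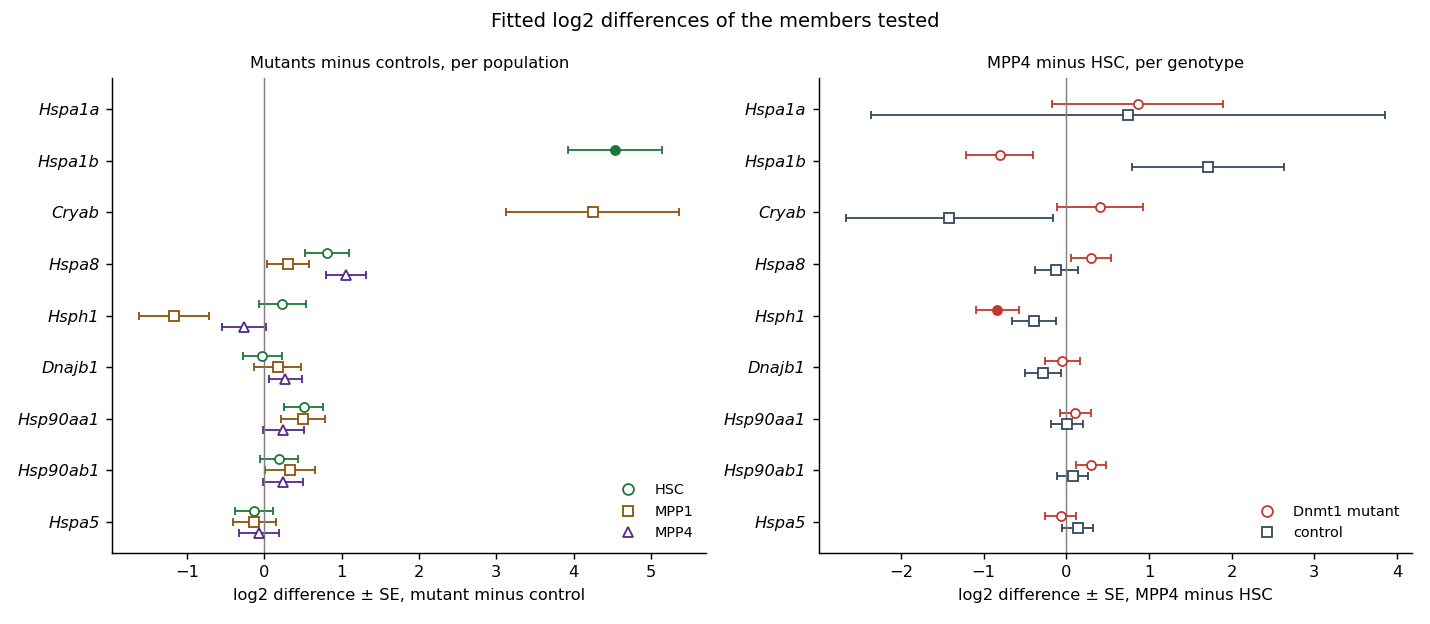
Fitted log2 differences with their SE for the members tested, mutant minus control in each population on the left and MPP4 minus HSC in mutants and controls on the right; filled symbols have an adjusted p under 0.05. Hspa1b in HSC, at 4.53, and Hsph1 between MPP4 and HSC in mutants, at -0.83, are the filled symbols.

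No gene of the wider chaperone lists was called between genotypes by edgeR or DESeq2. Of all genes tested, edgeR called 0.241% in HSC, 0.225% in MPP1 and 0.0852% in MPP4. The 8 lists, 102 genes in all, were other HSP70s, HSP90s and their co-chaperones (17 tested in each population), J proteins (18), nucleotide exchange factors and HSP70 partners (12, with 11 in MPP1), chaperonins (10), other small heat-shock proteins, heat shock factors, and genes of folding and the unfolded protein response in the endoplasmic reticulum (18, 18 and 19 in HSC, MPP1 and MPP4). At an unadjusted p under 0.05 edgeR had 11 of 85 tested in HSC, 6 of 83 in MPP1 and 3 of 86 in MPP4. The chaperonins had a median log2 difference of 0.44 in HSC with all 10 positive, beside a median of 0.01 over all genes tested, and medians of 0.02 in MPP1 and 0.05 in MPP4. In the same HSC contrast all 9 erythroid markers tested were on the higher side (median 1.13) and 12 of 13 stem cell markers on the lower side (median -0.46), and their part in the chaperonin values was not tested. The median of the HSP90 list was 0.15 in HSC, -0.11 in MPP1 and 0.07 in MPP4. Hsf1, the master heat shock factor, had log2 differences of 0.33 (SE 0.33) in HSC, 0.32 (SE 0.49) in MPP1 and -0.27 (SE 0.28) in MPP4 and was not called.

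Between MPP4 and HSC in controls, 3 of the 90 genes of these lists that were tested were called by edgeR, beside 9.82% of all genes, and DESeq2 called 1. Xbp1, a transcription factor of the unfolded protein response, was lower in MPP4 (log2 difference -1.09, SE 0.24, adjusted p 0.00179, edgeR). Dnajc9, a J protein that also handles histones, was higher in MPP4 (0.84, SE 0.21, adjusted p 0.00628, edgeR). Hspa12b, a distant HSP70 relative known from endothelium, was lower in MPP4 (-1.53, SE 0.48, adjusted p 0.0334, edgeR). In mutants 4 of 90 were called for MPP4 against HSC, beside 12.7% of all genes (1 by DESeq2): Hspa12b (log2 difference -2.37) and Hspa4l (-0.77) lower in MPP4, and Dnajc9 (0.60) and Edem1 (0.91) higher. For MPP4 against MPP1 in mutants 2 of 90 were called, beside 6.20% of all genes (0 by DESeq2): Hspa12b (-2.74) lower and Grpel1 (1.32) higher. The genes of these mutant contrasts were named after their values were seen.

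Some immediate-early genes, transcription factors and regulators that respond within minutes to stimulation or handling, were higher in mutants. Of the list, 6 of 19 tested genes were called higher in mutants in HSC (beside 0.241% of all genes called), 5 of 18 in MPP1 (0.225%) and 2 of 19 in MPP4 (0.0852%), and none lower. The list was chosen with earlier results of these data known, so these counts are a description and no enrichment is read from them. Called or not, 6 of the 19 were on the lower side in HSC, 3 of the 18 in MPP1 and 3 of the 19 in MPP4. The summed level of all 26 was 2813 to 4796 CPM in HSC mutants against 1859 to 1999.8 CPM in HSC controls, 3160.3 to 4963 CPM in MPP1 mutants against 1336 to 1908 CPM in MPP1 controls, and 1672 to 5031 CPM in MPP4 mutants against 1132 to 1862 CPM in MPP4 controls. The sums overlapped in MPP4 and not in HSC or MPP1. Fos had log2 differences of 1.84 in HSC, 2.78 in MPP1 and 2.06 in MPP4. Over the 18 libraries, log2 CPM of Hspa1b correlated with that of Fos at r = 0.925, the highest of all genes outside the members, and that of Cryab with Tnnt1 at 0.948 and with Xlr4a at 0.886. These 2 members were looked at after their values were seen, and the libraries share genotype, batch and ID numbers. The part of the immediate-early response in the chaperone values was not tested.

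The abundant members had other companions. Hspa8 was closest to the ribosomal protein genes Rpl10 (r = 0.957), Rpl28 (0.944) and Rps3 (0.930) and to Cox4i1 (0.941) and Uqcrc1 (0.936) of the respiratory chain. Hsph1 was closest to Wdr46 (0.919), Dhrs13 (0.851), Abhd8 (0.835), Rrp36 (0.816) and Nop2 (0.803), and Hspa5 to Nhsl2 (0.842), Vimp (0.808), Mbd5 (0.785), Evi5 (0.784) and Kif1b (0.779). Among the members, Hspa1a and Hspa1b had r = 0.837, Hsp90aa1 and Hsp90ab1 0.786, Hspa8 and Dnajb1 0.716, and Hspa1b and Hspa8 0.311. All are Pearson correlations of log2 CPM over 18 libraries that share depth and batch, given as a description.

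Some abundant members differed between sequencing batches. In a fit of the HSC and MPP4 libraries of batches A and C, added after seeing the data, Hspa8 was higher in batch A by a log2 difference of 1.84 (SE 0.22, adjusted p 4.02e-05, edgeR), with 479 to 1027 CPM in batch A against 109 to 443 CPM in batch C. Hsph1 was higher by 0.81 (SE 0.23, adjusted p 0.0115) and Dnajb1 by 0.68 (SE 0.16, adjusted p 0.00464) in edgeR's quasi-likelihood test. These were 3 calls among 9 members beside 22.3% of all genes. Batch A holds 1 ID number of each genotype, so batch and ID number cannot be told apart.

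**Figure D4:**
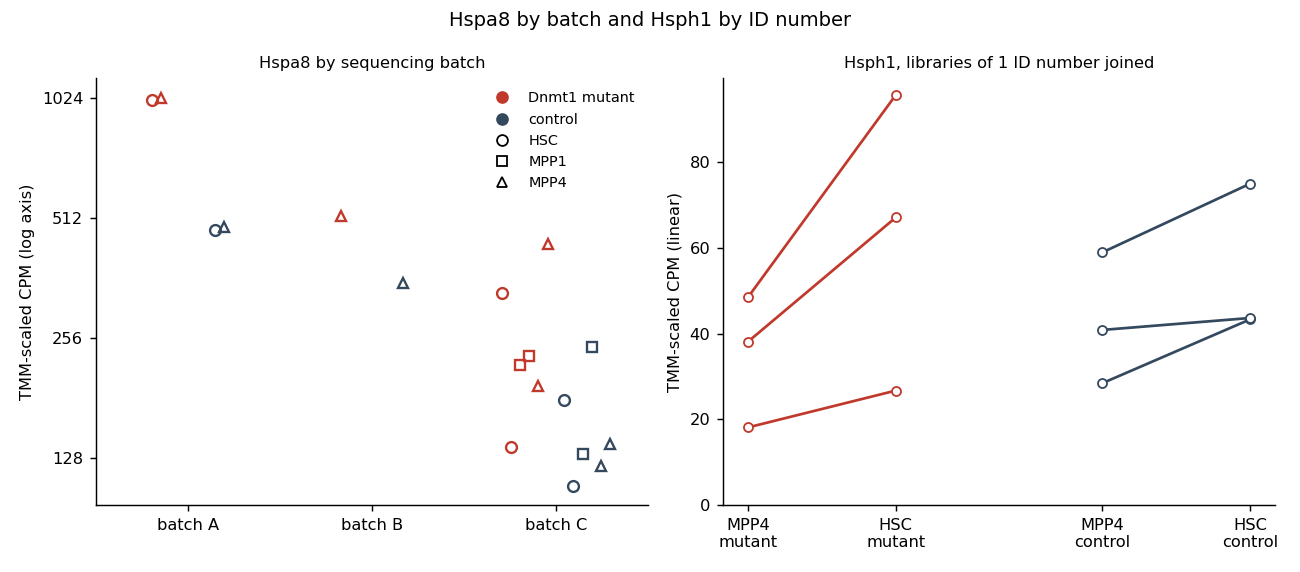
Left, Hspa8 in every library by sequencing batch, as TMM-scaled CPM on a log axis, with mutants left of controls. Right, Hsph1 on a linear axis with the MPP4 and HSC libraries of each ID number joined. The MPP4 library is the lower one in all 6 pairs, a count that was not set against all genes.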

How the data were processed

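Sorted HSC, MPP1 and MPP4 libraries of Dnmt1 mutant and control mice were analysed from the authors' deposited gene tables. The deposited values are estimated counts: the authors' whole numbers from 1000 upwards (1557 values below the ceiling of 36909) all lie on the grid that a correction for collisions among 4096 possible molecular identifiers gives, and they were used as they stand. The highest count of a member, 3835, stands for 2490 distinct identifiers. The genome build was mm10, and R 3.4.0 and DESeq2 were used, per the submitters' processing notes; the sources used here name no aligner, counter or annotation. The authors' deposited comparison table holds log2 differences, Wald test values (a score) and p-values, of which the log2 differences and adjusted p-values are quoted where named.

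The members and gene lists were chosen with earlier results of these data known. Counts were filtered (filterByExpr, minimum count 10), scaled by TMM and fitted in edgeR 4.0.16 (R 4.3.3) with robust quasi-likelihood tests and Benjamini-Hochberg adjustment: batch plus genotype per population (genotype alone in MPP1), and for populations all 18 libraries with ID number as a block, population and its interaction with genotype. DESeq2 1.42.0, other scalings, filters, batch settings and left-out libraries were the alternatives. The scripts were tested on simulated data. Genes named outside the members by a fixed rule were Hsf1, Fos, up to 2 called genes per chaperone list between MPP4 and HSC controls, and the 5 genes most like Hsph1, Hspa8 and Hspa5. Other genes of the chaperone lists, and the companions of Hspa1b and Cryab, were named after values were seen. In HSC, the deviations of mutant and control libraries with the same replicate number in the labels correlated at r = 0.496, 0.199 and 0.224. Unlike numbers gave 0.236 for mutant 3 with control 2 and 0.115 for mutant 2 with control 3, and negative values otherwise. The pair of number 1 is also the batch A pair, so these values do not show pairing by number within batch C. The replicate block changed no member's call in HSC. Libraries of 1 group differed by more than sampling noise (chi-square over its degrees of freedom, 2.96 to 73.9 by pair), so all were counted as separate.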

Additional observations from a re-analysis of the deposited data

How the results depend on the processing

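In HSC, 1 member (Hspa1b) was called between mutants and controls; the count was 2 with no filter, 0 with a minimum count of 30 (which removes Hspa1b), 0 with 1 spread over all libraries, and 1 to 2 with a replicate left out (2 without mutant 3, by Hspa8, and without control 3, by Hspa1a). With the replicate block it stayed 1 (Hspa1b, log2 difference 4.52). In MPP1 the count of 0 became 2 with no filter and 1 under the replicate block (Cryab, adjusted p 0.0109, edgeR), where same-numbered libraries correlate at 0.171 in 2 pairs and share only a number. In MPP4 the count of 0 became 4 with no filter, 1 by DESeq2 (Hspa8), 1 with 1 spread (Cryab), 1 in batch C alone (Hspa1a) and 0 to 2 with a replicate left out; it was 0 under the replicate block, where same-numbered correlations were 0.326, -0.0237, 0.348 and -0.0202. Without MPP4 mutant 2 it was 0 of 6 tested. The filter again removed Hspa1a, Hspa1b and Cryab, so that 0 does not speak to them. Of the population contrasts, only MPP4 against HSC in mutants changed: the count of 1 (Hsph1) became 0 with library totals, DESeq2, no filter, batch in place of ID number or batch C alone, and 0 to 1 with an ID number left out. Counts over all genes varied more: 22 in HSC (5 with no batch term to 0.532% of 21061 genes with no filter), 18 in MPP1 (4 with 1 spread to 75 without control 1), 8 in MPP4 (1 without control 3 to 88 with no filter), 1042 for MPP4 against HSC in controls (460 without the ID number of HSC control 2 to 1158 without that of HSC mutant 1) and 1348 in mutants (722 without the ID number of HSC mutant 2 to 1533 without that of HSC control 3). The other counts were 25 for MPP1 against HSC in controls (3 to 71) and 5 in mutants (0 to 29), and 380 for MPP4 against MPP1 in controls (64 to 466) and 658 in mutants (152 to 779). Small uncalled differences of MPP4 minus HSC changed sign. In controls, Hsp90aa1 was -0.0012 with RLE factors, -0.15 with library totals, -0.0070 with DESeq2, and -0.13 to 0.17 with an ID number left out; Hspa5 was -0.029 and Hsp90ab1 -0.094 with library totals; with an ID number left out, Hspa8 ran between -0.24 and 0.14 and Hsp90ab1 between -0.0081 and 0.13. In mutants, Hspa5 was 0.058 and Hsp90aa1 -0.084 with batch in place of ID number, and Hspa5 0.12 and Dnajb1 0.049 in batch C alone; with an ID number left out, Hspa1a ran between -0.30 and 2.01, Hspa5 between -0.32 and 0.12, Hsp90aa1 between -0.11 and 0.29 and Dnajb1 between -0.14 and 0.048. Of the uncalled differences between mutants and controls, Hspa5 changed sign with a library left out in each population (highest 0.15 in HSC, 0.10 in MPP1 and 0.17 in MPP4), Hspa8 in MPP1 (lowest -0.12), Hsph1 in HSC (lowest -0.14) and Dnajb1 in HSC (highest 0.093) and MPP1 (lowest -0.16); Dnajb1 in HSC was also 0.025 with no batch term. The cause was not tested. Depth limits the sparse members: 3 counts correspond to 2.26 to 12.3 CPM in the libraries without an Hspa1a count.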

Other observations

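Some of the wider chaperone lists also differed between batches A and C, in the fit that takes the HSC and MPP4 libraries together. Hspe1, the mitochondrial co-chaperonin, was higher by a log2 difference of 2.24 (SE 0.17, adjusted p 2.39e-09, edgeR's quasi-likelihood test), and 5 of 10 chaperonin genes were called higher and none lower, beside 11.1% of all genes called higher. Of 17 HSP90s and co-chaperones, 8 were called higher, among them Ahsa1 (1.05), Fkbp8 (1.04) and Cdc37 (0.86), and 1 lower, Ptges3 (-0.70). Of 12 nucleotide exchange factors and HSP70 partners, 3 were called, each higher. Other lists were mixed: of 7 other HSP70s 3 were on the higher and 4 on the lower side (median log2 difference -0.10), of 19 J proteins 1 was called higher and 2 lower, and of 20 genes of folding in the endoplasmic reticulum 1 was called higher (Creld2) and 1 lower (Atf6). In the same fit all 11 erythroid markers tested were on the higher side in batch A (3 called) and 11 of 13 stem cell markers on the lower side (7 called), and their part was not tested. These genes were named after their values were seen, and batch A holds 1 ID number of each genotype.

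Among the mutants, the share of Hspa1b in the counts of the Hspa1a and Hspa1b pair was 42.9%, 48%, 57.1% and 37.8% in MPP4 and 62.8%, 85.4% and 67.7% in HSC. The means were 46.4% ± 8.2 (SD, n = 4) in MPP4 and 72.0% ± 11.9 (SD, n = 3) in HSC. The ranges did not overlap, a pattern picked after seeing the data and given with no test, since 3 of the 4 MPP4 mutants share an ID number with the 3 HSC mutants. The pair had between 14 and 82 counts in these 7 libraries. The exact 95% interval of a share ran as wide as 17.7% to 71.1% in MPP4 mutant 1, which had the fewest counts of the pair. In MPP1 mutants the share was 57.1% of 21 counts and 100% of 9 counts.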
